A study of Mus musculus with 8 samples.

Results

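The genes described here encode the subunits of the CCT chaperonin (also called TRiC), the cytosolic folding machine. They were the 9 genes Tcp1, Cct2, Cct3, Cct4, Cct5, Cct6a, Cct6b, Cct7 and Cct8, of which 8 were among the 30702 genes measured by a named probe set. The family was picked on its results in these arrays, and the probe set of each gene was chosen by its brightness, the mean log2 value over all 8 arrays. These 8 had a probe set annotated to that gene alone, 1 each, so brightness decided nothing. The only probe set of Cct6a also carried the name of Snora15, a small nucleolar RNA gene inside Cct6a, so its values are given apart and enter no count.

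CCT is a double ring that encloses unfolded proteins and folds them in a cycle driven by ATP. Each ring holds the different subunits side by side, so the complex needs every subunit, and Cct6b is a second form of Cct6a known mainly from testis. Actin and tubulin, the building blocks of the cytoskeleton, cannot fold without it, and in the gut wall every cell type makes both. Prefoldin delivers unfolded chains to CCT, phosducin-like proteins modulate it, and tubulin cofactors take over the tubulin that it releases.

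Colon RNA was compared between 2 groups of Rag1-/- mice of the C57BL/6 strain, which lack mature T and B cells of their own. Controls were 5 mice injected with regulatory T cells (Treg-injected, non-inflamed colon), and the other group was 3 mice injected with naïve T cells (Naïve T-injected) and killed when severely inflamed. Injection was at 10 weeks of age and death 2 to 4 months later, against a labelled age of 4 to 5 months. The labels describe the sampled piece both as distal colon and as a strip from cecum to rectum, so the region is uncertain. Each array is called by its group and replicate number, and the replicates are labelled as biological.

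The promoters of the genes are shown first, because the subunits are made for 1 complex. Whether promoter letters bear on which subunits shifted was not tested. The 250 bases before the annotated start are given 5′ to 3′ for Cct2, Cct8 and Tcp1, the 3 subunits whose shift met the fit's threshold with any 1 array left out, and for Cct5, which did not meet it. They are from RefSeq on GRCm38.p6. Capitals mark matches, on either strand, to the GC box GGGCGG, the CCAAT box, the ETS site CCGGAAG, the E-box CACGTG and the heat shock forms GAANNTTC and TTCNNGAA.
Cct2, chr10:117063853-117064102, minus strand: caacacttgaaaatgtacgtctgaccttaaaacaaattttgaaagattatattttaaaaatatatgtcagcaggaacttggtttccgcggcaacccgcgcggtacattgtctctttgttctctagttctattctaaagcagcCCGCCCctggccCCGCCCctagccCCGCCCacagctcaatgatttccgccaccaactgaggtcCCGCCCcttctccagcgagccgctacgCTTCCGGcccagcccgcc
Cct8, chr16:87495870-87496119, minus strand: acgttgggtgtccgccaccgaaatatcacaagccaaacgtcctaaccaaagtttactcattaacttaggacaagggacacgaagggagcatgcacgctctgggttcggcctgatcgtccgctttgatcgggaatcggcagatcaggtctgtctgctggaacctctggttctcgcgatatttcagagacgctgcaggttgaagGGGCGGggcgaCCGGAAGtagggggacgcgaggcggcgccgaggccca
Tcp1, chr17:12916079-12916328, plus strand: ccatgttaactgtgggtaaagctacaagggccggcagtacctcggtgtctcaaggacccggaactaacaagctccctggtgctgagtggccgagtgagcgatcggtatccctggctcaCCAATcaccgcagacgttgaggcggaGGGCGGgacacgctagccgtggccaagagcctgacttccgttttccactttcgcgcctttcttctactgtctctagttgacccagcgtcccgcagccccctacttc
Cct5, chr15:31601847-31602096, minus strand: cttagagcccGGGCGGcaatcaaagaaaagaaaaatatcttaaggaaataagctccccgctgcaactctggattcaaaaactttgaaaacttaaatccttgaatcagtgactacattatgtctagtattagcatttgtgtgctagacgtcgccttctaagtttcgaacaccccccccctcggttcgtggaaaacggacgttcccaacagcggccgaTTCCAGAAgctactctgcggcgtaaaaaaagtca

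GC boxes, letters bound by Sp1-type factors, were found in 7 of the 8 subunit promoters searched, all but that of Cct6b. The 8 include Cct6a and not Cct4, whose promoter was not analysed here. They stood in 32.7% of 32817 mouse promoter windows of the same length. Cct2 held 4 of them, at -108, -96, -84 and -45 counted back from the start. CCAAT was found before Cct3, Cct6a, Cct7 and Tcp1, against 33.8% of all promoters. The ETS site was found before Cct2, Cct8 and Cct6b, against 6.90%, at -18 in Cct2 and -37 in Cct8. Heat shock elements are the letters read by Hsf1, the master factor of the heat shock response. The form GAANNTTC was in 0 of the 8 promoters and 6.69% of all, and TTCNNGAA was in that of Cct5 alone, at -34, against 7.16%. Only these exact forms were searched, so a promoter without them is not shown to lack a heat shock element. The E-box was in 0 of 8, against 6.02%. These are matches of letters and show no binding.

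The subunit transcripts separated the groups in 5 of 8 cases, all upward and all modest, where 12.0% of all genes had every inflamed array above every control. Cct2, Cct3, Cct8, Cct7 and Tcp1 were 1.30-fold to 1.39-fold higher in inflamed colon, with all 3 inflamed arrays above all 5 controls. Cct4, Cct5 and Cct6b overlapped between groups. In RNA from whole gut wall, a change in the mix of cells and a change in RNA per cell, such as fewer cells of a type or less RNA in each, cannot be told apart. All of these values come from the comparison that was in view when the family was picked, so they are a description and carry no test.

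Cct2, the beta subunit, had the clearest separation. Its log2 intensity was 10.33, 10.19, 10.18, 10.23 and 10.08 on controls 1 to 5 and 10.67, 10.73 and 10.62 on inflamed replicates 1 to 3. The lowest inflamed array lay 0.29 above the highest control. Group means were 10.20 ± 0.089 (SD, n = 5) and 10.68 ± 0.055 (SD, n = 3), a difference of 0.47 ± 0.056 (SE) on the log2 scale.

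Cct8, the theta subunit, gave the same picture at a lower margin. It was at 8.74, 8.52, 8.67, 8.65 and 8.47 in the controls and at 9.10, 9.11 and 8.92 in the inflamed arrays. Control 1 was the highest control and inflamed replicate 3 the lowest inflamed array, 0.18 apart. The means were 8.61 ± 0.11 (SD, n = 5) and 9.05 ± 0.11 (SD, n = 3), and the difference was 0.44 ± 0.075 (SE).

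Cct3, the gamma subunit, was at 8.93, 8.69, 8.69, 8.78 and 8.54 in the controls and 9.28, 9.15 and 9.06 in the inflamed arrays. The groups did not overlap, although control 1 came within 0.13 of inflamed replicate 3. Its difference was 0.44 ± 0.089 (SE), from 8.73 ± 0.14 (SD, n = 5) to 9.16 ± 0.11 (SD, n = 3).

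Tcp1 encodes the alpha subunit, after which the complex was first named. It was at 8.02, 7.83, 7.91, 7.85 and 7.76 in the controls and 8.26, 8.34 and 8.14 in the inflamed arrays. Again control 1 was highest among controls, and the nearest inflamed array lay 0.12 above it. The difference was 0.37 ± 0.067 (SE), from 7.87 ± 0.097 (SD, n = 5) to 8.25 ± 0.099 (SD, n = 3).

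Cct7, the eta subunit, was the most variable among controls, at 8.41, 8.36, 8.54, 8.31 and 8.09. The inflamed arrays were at 8.89, 8.70 and 8.63. The groups were 0.096 apart, the narrowest margin of the 5, and control 5 was far below the rest. The difference was 0.40 ± 0.10 (SE), from 8.34 ± 0.16 (SD, n = 5) to 8.74 ± 0.13 (SD, n = 3).

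**Figure D1:**
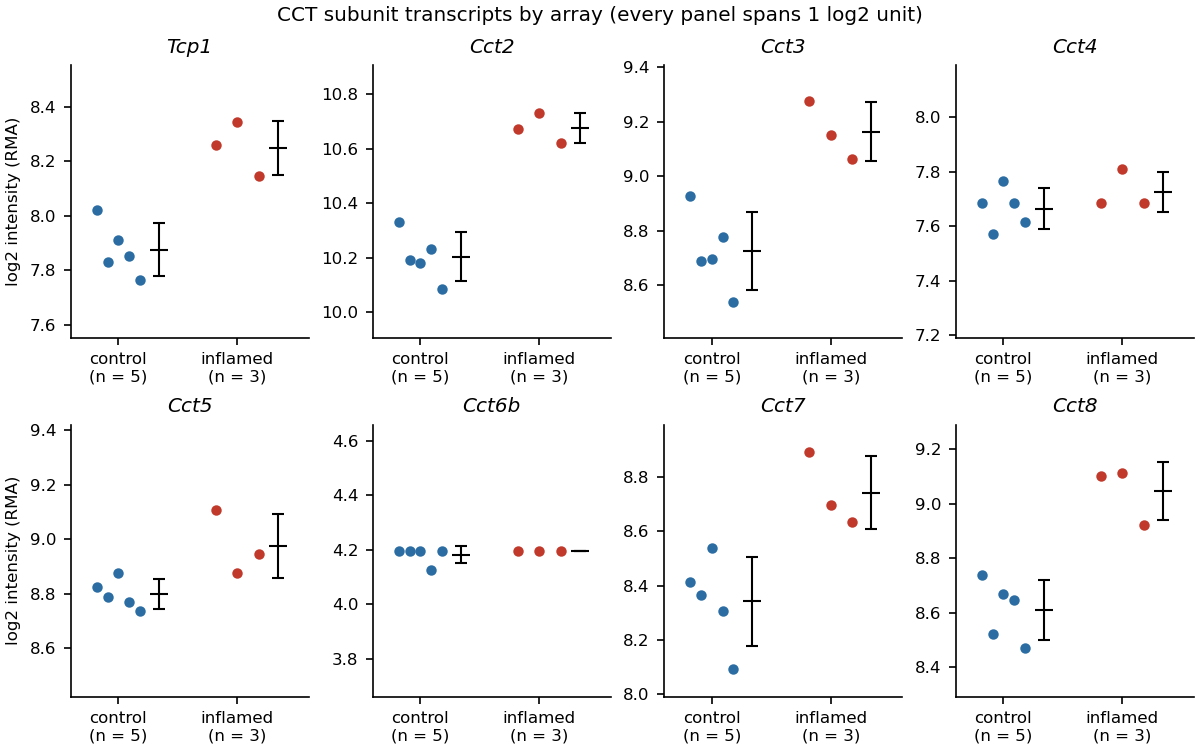
Log2 intensity of the 8 measured CCT subunits on each array, controls in blue (n = 5) and inflamed colon in red (n = 3), with the group mean and SD in black beside the points. Each panel spans 1 log2 unit. In Cct2, Cct3, Cct7, Cct8 and Tcp1 the 3 inflamed points sit above every control, while Cct4, Cct5 and Cct6b overlap.

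Cct5 and Cct4, the epsilon and delta subunits, moved less. Cct5 was at 8.83, 8.79, 8.88, 8.77 and 8.74 in the controls and 9.11, 8.88 and 8.95 in the inflamed arrays. Inflamed replicate 2 had the same value as control 3, so the groups met, and the difference was 0.18 ± 0.057 (SE). It was 0.11 without inflamed replicate 1 and 0.086 under quantile normalization. Cct4 was at 7.68, 7.57, 7.77, 7.68 and 7.62 in the controls and 7.68, 7.81 and 7.68 in the inflamed arrays, a difference of 0.062 ± 0.053 (SE). Inflamed replicates 1 and 3 lay inside the control range, and the difference was 0.020 without inflamed replicate 2 and 0.039 without control 2. Cct4 had the same value to all deposited decimals on 4 of 8 arrays. Such repeats on 4 or more arrays occurred in 24.6% of all genes, and their part in the small Cct4 difference was not tested.

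Cct6b was close to background. Its log2 value was 4.20 on 7 of the 8 arrays and 4.12 on control 4, under the array medians of the negative control probe sets (4.92 to 5.11). No level can be read from it. The probe set shared by Cct6a, the zeta subunit, and Snora15 was at 9.41, 9.44, 9.45, 9.43 and 9.32 in the controls and 10.12, 9.89 and 9.97 in the inflamed arrays. The groups did not overlap, and the difference of 0.58 was above that of any probe set of a single subunit. How much of that signal belongs to either gene cannot be told apart.

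In the fit across all genes, 5 of the 8 measured subunits had an adjusted p under 0.05 and 0 of these were lower. The share of all genes that passed was 13.1% in either direction and 8.06% upward. Of the 15863 genes with a group mean above 5.67, the mean of the array medians over named genes, 22.8% passed and 14.1% passed upward. All measured subunits but Cct6b were among these brighter genes. Since this comparison was known when the family was picked, nothing is read from these counts. The median difference was 0.39 over the 8 subunits and -0.013 over all genes, and 7.20% of all genes had a difference above the subunit median. Cct2, Cct8 and Tcp1 passed with any 1 array left out. Cct3 no longer passed without control 2 or inflamed replicate 1, which left 3 subunits, and Cct7 passed only with all arrays or without control 3. Inflamed replicate 2 stood somewhat apart, with a correlation over genes of 0.988 to 0.989 to the other 2 inflamed arrays, which correlated at 0.995. Without it 5 subunits passed, Cct5 in place of Cct7.

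The arrays did not contribute equally, and the subunits tended to be high or low on the same arrays. Averaged over the 7 subunits above background (all but Cct6b), the deviation from the control mean was 0.10, -0.038, 0.059, 0.0071 and -0.13 on controls 1 to 5. It was 0.40, 0.36 and 0.26 on inflamed replicates 1 to 3. Control 5 was the lowest control in 6 of the 7 subunits, and control 1 or 3 the highest in all 7. Inflamed replicate 3 was the lowest inflamed array in 5 of 7. The exceptions were Cct4, with replicates 1 and 3 equal, and Cct5, with replicate 2 lowest.

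**Figure D2:**
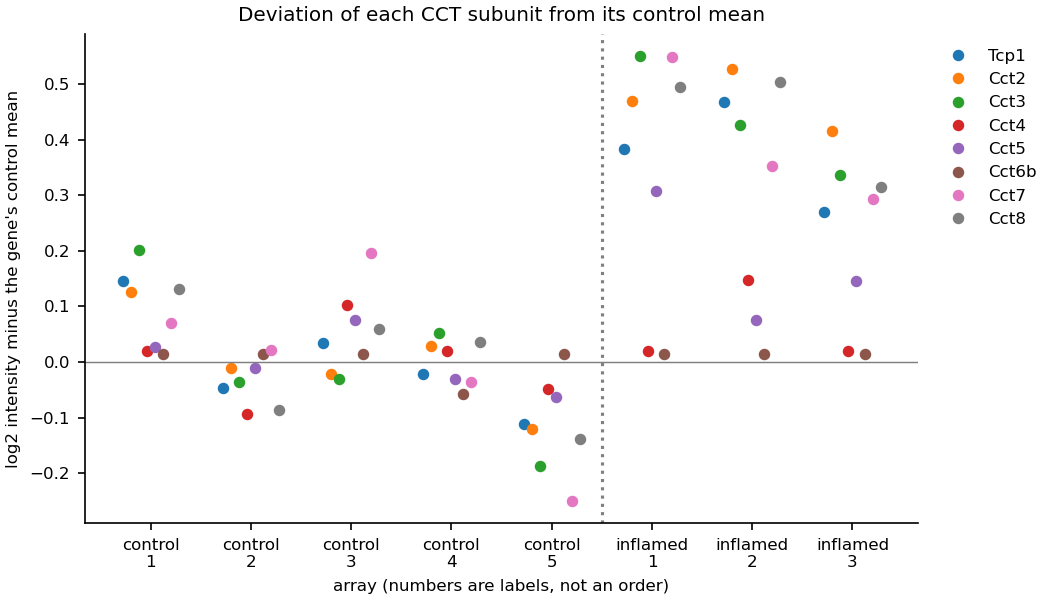
Log2 intensity of each subunit minus its own control mean (vertical axis) on each of the 8 arrays (horizontal axis), 1 colour per subunit. Control 5 lies lowest among controls in 6 of 7 subunits above background, and 5 subunits lie at 0.27 or more on every inflamed array, with Cct4, Cct5 and Cct6b below them on each.

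The subunits of the ring therefore did not shift by equal amounts on the array. Set against the mean of the other 6 subunits on the same array, which removes what the array did to all of them, Cct4 differed by -0.32 between the groups. Its 3 inflamed values lay 0.44 to 0.25 below the control mean of that balance, with all controls within 0.098 of it. Cct5 differed by -0.19 in the same way, and Cct2 by 0.16. Tcp1 was nearest to the others, with a balance difference of 0.043 and overlapping groups. Such a balance shows unequal change between probe sets and not which of them changed, and probe sets can respond unequally to the same change in RNA.

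**Figure D3:**
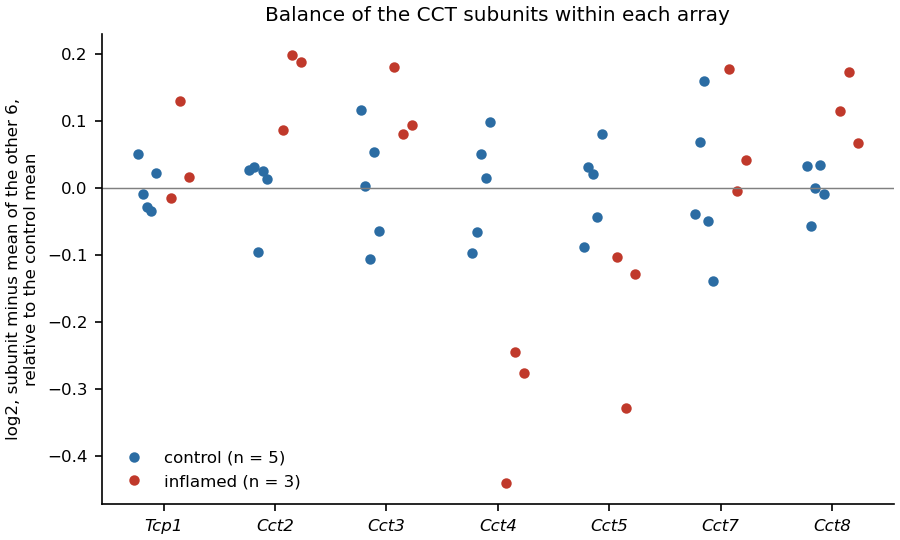
For each of the 7 subunits above background, the log2 value minus the mean of the other 6 on the same array, relative to its control mean, in controls (blue, n = 5) and inflamed colon (red, n = 3). Cct4 and Cct5 lie below all controls on every inflamed array, Cct2 and Cct8 lie above them, and Tcp1, Cct3 and Cct7 overlap.

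Processed copies of CCT genes lie scattered in the mouse genome, and their probe sets may share signal with the parent genes. Of 16 CCT pseudogenes in the RefSeq table, 6 had a named probe set. Their group means ran from 4.05 to 5.73, in or near the background range. The Cct3 copy Cct3-ps1 rose by 0.51 in inflamed colon (limma adjusted p = 0.0109), and the other 5 did not pass. Every inflamed array was above every control in Cct3-ps1, in Tcp1-ps1 (0.23) and in Gm11516, another Cct3 copy (0.31). That held for 12.0% of all genes. Gm15495, Gm12180 and Gm5380 overlapped between groups.

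Genes that start within 1000 bases of a subunit gene on the other strand and run away from it may share its promoter. Cct4 was not searched for them. The other subunit genes had 7 such neighbours on GRCm38.p6, 1 of them, Tsacc beside Cct3, without a named probe set. The other 6 did not pass limma's test. Mrpl18, a mitochondrial ribosomal protein gene beside Tcp1, differed by 0.25 ± 0.098 (SE, adjusted p = 0.141). Pradc1 beside Cct7 differed by -0.0097 ± 0.026 (SE, adjusted p = 0.838), while Cct7 itself was 0.40 higher. Atpsckmt beside Cct5 differed by -0.20 ± 0.082 (SE, adjusted p = 0.154).

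The genes that work with CCT were read from 8 lists, holding 71 genes of which 62 were measured. In limma's fit across all genes, 12 of the 62 rose and 3 fell, against 8.06% and 5.04% of all genes, and 47 did not pass. Of the 15863 brighter genes described above, 14.1% rose, and most but not all of the 62 were that bright. Over all genes 2476 rose and 1546 fell, a split that quantile normalization moved to 2366 and 2217. The median difference of the 62 companion genes was 0.13. Without inflamed replicate 1 the count of risen genes was 5, and without control 4 it was 6.

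Upstream of CCT, the helpers did not pass. Of the 6 prefoldin subunits, which carry nascent actin and tubulin to CCT, 0 passed in either direction, with 4 at an unadjusted p under 0.05, against 28.5% of all genes, and a list median of 0.14. Pfdn4 differed by 0.22 ± 0.063 (SE, adjusted p = 0.0649) and Pfdn1 by 0.17 ± 0.062 (SE, adjusted p = 0.116). Pfdn4 did not overlap between groups, at 5.82 to 5.96 in controls and 5.98 to 6.24 in inflamed colon. It passed without inflamed replicate 3 (adjusted p = 0.0328) and with dim genes left out (adjusted p = 0.0445). Pfdn6 did not overlap either, at 8.10 to 8.24 and 8.25 to 8.31, with a difference of 0.13 ± 0.036 (SE, adjusted p = 0.0601). The other prefoldin genes overlapped. Of 4 measured cofactors 0 passed, with 2 at an unadjusted p under 0.05 and a median of 0.14. Pdcl3, a phosducin-like protein, differed by 0.34 ± 0.11 (SE, adjusted p = 0.0974), and Txndc9, a thioredoxin-like protein that binds CCT, by 0.26 ± 0.088 (SE, adjusted p = 0.0992). Without inflamed replicate 2 the Txndc9 difference was 0.17.

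Among the cytosolic Hsp70 and Hsp90 chaperones and their cochaperones, 3 of 9 measured genes rose and 0 fell, with a list median of 0.19. Hspa4, an exchange factor of Hsp70, rose by 0.38 ± 0.076 (SE, adjusted p = 0.0184), from 9.64 to 9.91 in controls to 10.02 to 10.27. Stip1, the adaptor between Hsp70 and Hsp90, rose by 0.39 ± 0.099 (SE, adjusted p = 0.0426), and Cdc37, which loads kinases on Hsp90, rose by 0.26 ± 0.068 (SE, adjusted p = 0.0489). The Hsp70 gene Hspa8 differed by 0.060 ± 0.083 (SE, adjusted p = 0.660) and the Hsp90 gene Hsp90aa1 by 0.30 ± 0.093 (SE, adjusted p = 0.077). Hspa1a, the heat-inducible Hsp70, differed by -0.61 ± 0.22 (SE, adjusted p = 0.121). The calls were fragile. That of Hspa4 ended without inflamed replicate 1 (adjusted p = 0.0709), that of Stip1 without control 1, 4 or 5 or any 1 inflamed array (adjusted p = 0.0657 to 0.107), and that of Cdc37 without any array but control 3 (adjusted p = 0.0551 to 0.153).

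Of 6 related chaperonin genes 1 rose and 1 fell, with a list median of 0.020. Hspd1, the mitochondrial chaperonin Hsp60, rose by 0.32 ± 0.058 (SE, adjusted p = 0.0132), at 9.84, 9.87, 9.93, 9.79 and 9.75 in controls and 10.25, 10.16 and 10.05 in inflamed colon. All inflamed arrays were above all controls, and the call held with any 1 array left out. Its partner Hspe1 differed by 0.14 ± 0.075 (SE, adjusted p = 0.273). Cct8l1, a CCT8-like gene, fell by 0.15 ± 0.034 (SE, adjusted p = 0.0288), a call that ended without any of 6 arrays, controls 2, 3 and 4 and inflamed replicates 1, 2 and 3 (adjusted p = 0.0523 to 0.0778).

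Downstream, 1 of 6 tubulin cofactor genes rose and 0 fell, with a list median of 0.13. Tbcb, which handles alpha-tubulin, rose by 0.48 ± 0.084 (SE, adjusted p = 0.0113), at 7.77 to 8.15 in controls and 8.33 to 8.41 in inflamed colon, and kept its call with any 1 array left out. Tbca, the beta-tubulin cofactor, had the larger difference of 0.56 ± 0.15 (SE) at an adjusted p of 0.050002, just above the threshold of 0.05. Inflamed replicate 3 lay at the level of control 3, near 9.71. It passed when control 3 was dropped (adjusted p = 0.0305), and also when inflamed replicate 3 was (adjusted p = 0.0427). With all arrays kept, array weights, median centring, and trend and robust variances also let it pass. So did dim genes left out and the mean over probe sets (adjusted p = 0.02315 to 0.04994 for all of these). It did not pass with quantile normalization, the floor, or Xist or the replicate number as a block (adjusted p = 0.0586 to 0.3955).

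The actins, the chief clients of CCT, split by type. Of 4 measured genes 1 rose and 2 fell, with a list median of -0.39. Actb, the actin of most cells, rose by 0.38 ± 0.070 (SE, adjusted p = 0.0132), from 12.47 to 12.79 in controls to 13.00 to 13.08. The smooth muscle actins Acta2 and Actg2 fell by 0.73 ± 0.12 (SE, adjusted p = 0.008) and by 0.63 ± 0.098 (SE, adjusted p = 0.00711), with every inflamed array below every control. The 3 calls held with any 1 array left out, while quantile normalization moved Actb to 0.22 and ended its call (adjusted p = 0.365).

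Tubulin genes rose in 3 of 14 cases and fell in 0, with a list median of 0.13. Tuba4a, an alpha-tubulin, rose by 0.84 ± 0.18 (SE, adjusted p = 0.0257), from 9.40, 9.20, 9.67, 9.27 and 8.83 in controls to 10.23, 9.88 and 10.24. Tubb5, a widely made beta-tubulin, rose by 0.60 ± 0.14 (SE, adjusted p = 0.0316) and Tuba1c by 0.21 ± 0.051 (SE, adjusted p = 0.0347). No overlap between groups was seen in these 3. The mean over the probe sets of Tuba1c gave 0.38, and its call ended with Xist as a block, array weights, a floor, trend and robust variances, and quantile normalization (adjusted p = 0.0597 to 0.427). Tuba4a missed the threshold when any of 4 arrays was dropped, namely controls 2 and 4 and inflamed replicates 1 and 3 (adjusted p = 0.0616 to 0.0929). Tubb5 missed it with control 3, control 4 or any inflamed array dropped (adjusted p = 0.0558 to 0.0983). Tuba1c kept its call only with control 2 or inflamed replicate 1 dropped (adjusted p = 0.0743 to 0.0932 in the other 6 fits).

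Of 13 other measured clients, 3 rose and 0 fell, with a list median of 0.12. Ccne1, the cyclin E1 of entry into S phase, rose by 0.35 ± 0.062 (SE, adjusted p = 0.0114) and kept its call with any 1 array left out. Stat3, a transcription factor of cytokine receptors, rose by 0.28 ± 0.076 (SE, adjusted p = 0.0493), and Gnb1, a G protein beta subunit, rose by 0.28 ± 0.062 (SE, adjusted p = 0.0272). The Stat3 call ended without any array but inflamed replicate 2 (adjusted p = 0.0509 to 0.140), and that of Gnb1 without control 2 or 3 or any 1 inflamed array (adjusted p = 0.0594 to 0.070).

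**Figure D4:**
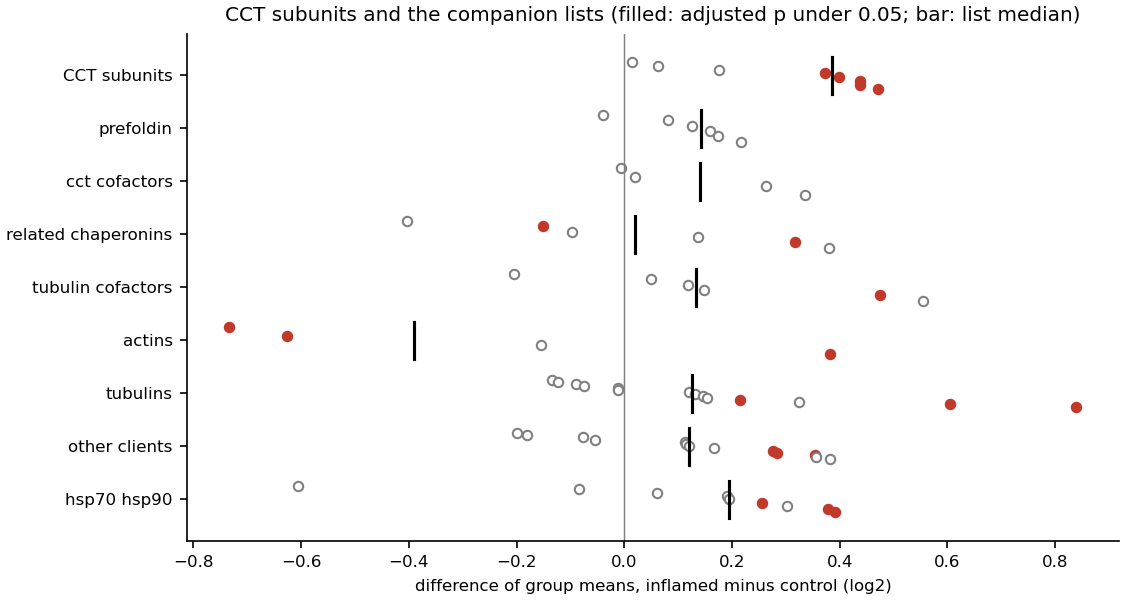
Difference of group means, inflamed minus control (log2, horizontal axis), of each measured gene in the CCT family and the 8 lists of genes that work with it. Filled red points passed limma's adjusted p of 0.05, open points did not, and the black bar is the list median. The CCT median of 0.39 lies above the medians of the 8 lists, which run from -0.39 to 0.19, and the family was picked knowing this comparison.

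By likeness of pattern, the 5 genes nearest to the mean of the 8 subunits were Sptlc1, Wdr3, Atxn10, Xpo4 and Rwdd4a. Likeness was the root mean square difference, over the 8 arrays, between values centred on each gene's own mean, and it ran from 0.028 for Sptlc1 to 0.036 for Rwdd4a. The subunits, not picked for nearness, lay 0.062 (Tcp1) to 0.17 (Cct6b) from the mean of the other subunits. These ranges cannot be ranked against each other. The 5 genes were the nearest of all those measured, and each subunit was set against a mean that left it out. Sptlc1, a subunit of the enzyme that starts sphingolipid synthesis, was at 8.19, 8.03, 8.16, 8.08 and 7.98 in controls and 8.45, 8.48 and 8.32 in inflamed colon. Nearness was sought in these same values, so it carries no test.

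Markers of cell types also differed between the groups, in a direction that varied by cell type. All 12 leukocyte markers rose, with a summed linear intensity of 974 to 1125 in controls and 5544 to 10271 in inflamed colon, led by S100a8 (6.57), S100a9 (5.14) and Lyz2 (2.76). Of 10 measured genes of cycling cells 8 rose and 0 fell, summed at 2280 to 3178 against 4114 to 4518, led by Top2a (0.92), Mcm3 (0.83) and Bub1 (0.82). Of 8 smooth muscle markers 6 fell, summed at 13177 to 18652 against 9152 to 10193, led by Cnn1 (-0.77), Des (-0.73) and Acta2 (-0.73). Of 11 measured epithelial markers 1 rose and 3 fell, summed at 46788 to 50184 against 44503 to 50334, among them Slc26a3 (-1.30), Krt20 (0.58) and Cdx1 (-0.51). Some of these calls ended with 1 array left out, that of Slc26a3 in 6 of 8 fits, Des and Mcm3 in 5 each, Krt20 in 4 and Cdx1 in 2, and quantile normalization moved Krt20 to 0.37 (adjusted p = 0.248). The epithelial marker Epcam averaged 12.24 in controls and 12.23 in inflamed colon, and Krt8 averaged 12.94 and 13.04, neither past the test. The part of these shifts in the subunit differences was not tested. Xist, the RNA of X inactivation, was high on controls 3, 4 and 5 and inflamed replicate 3 and low on the other 4 arrays. Within the 4 arrays with low Xist (2 against 2) the differences were 0.44 for Cct2, 0.48 for Cct8, 0.41 for Cct3, 0.41 for Cct7, 0.38 for Tcp1, 0.18 for Cct5 and 0.12 for Cct4. On the other side, with 1 inflamed mouse, they were 0.45, 0.33, 0.39, 0.32, 0.30, 0.15 and -0.0050 in that order of genes. With Xist as a block Cct7 no longer passed and the other 4 did.

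**Figure D5:**
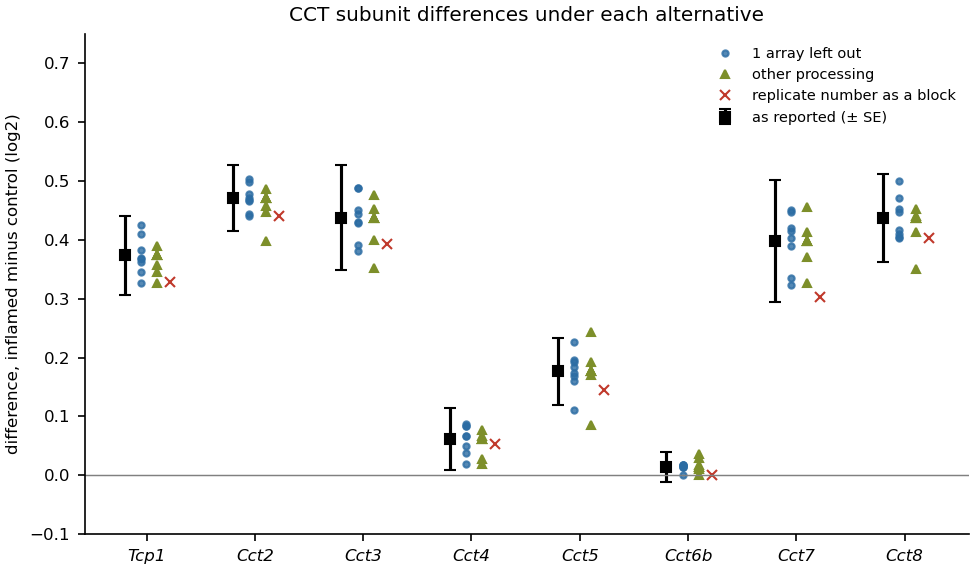
Difference of each CCT subunit, inflamed minus control (log2, vertical axis), as reported with its SE (black squares), with 1 array left out (blue), under other processing (green triangles) and with the replicate number as a block (red crosses). Cct2 stays between 0.40 and 0.50 and Cct4 between 0.019 and 0.088.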

How the data were processed

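RNA from 8 mouse colons was hybridised to Affymetrix arrays, 1 per mouse. The deposited values are log2 intensities, a scale read from the values. Per the submitters' processing notes, RMA and Affymetrix Expression Console were used. Their versions and the build are not given in the sources used. Array medians lay between 4.81 and 4.91. RMA compresses low signals, which understates folds of dim genes, and the few arrays limit precision.

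Probe sets were named from the platform annotation, updated through the RefSeq table of GRCm38.p6. Annotation covered 32750 probe sets: 30604 carried a single symbol, another 654 carried synonyms of a single gene, and the 1492 assigned to more than 1 gene were not named. Where a gene had several probe sets, the brightest was used. limma 3.58.1 in R 4.3.3 (lmFit, eBayes) was fitted over 30702 genes, inflamed minus control, with Benjamini-Hochberg adjustment over all of them. "Rose" and "fell" are kept for genes below 0.05 after adjustment. The code was tested on simulated data.

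Companion and marker lists, and the rule for named genes (all subunits; per list the 3 largest differences that passed, or the 2 largest of any where fewer than 2 passed; the 5 nearest patterns), were chosen with earlier results of these data known. Genes outside that rule (Pfdn6, Hspe1, Hspa8, Hsp90aa1, Hspa1a, Epcam, Krt8, the pseudogenes and the neighbours) were named after their values were seen. Alternatives covered normalization, centring, dim genes, a floor, probe set choice, variance settings, array weights, blocks and leaving out each array. The main fit used no pairing by replicate number. Muc2, Actg1, Tuba1b and Hsp90ab1 were among the listed genes with no named probe set of their own and are not analysed here.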

Additional observations from a re-analysis of the deposited data

Results flagged for a closer look

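In 5 of the genes described, 1 control array stood apart from the other 4 by Dixon's ratio, the gap to the nearest array divided by the range of the group. The ratio was taken in every subunit and every other gene named by the rule given above, so some flags come by chance. Chance flags about 1 in 20 such groups of normally distributed values without ties. That rate does not apply to Cct6b and Cct8l1, in which several controls had the same value. For Cct6b the ratio was 1.0, since 4 controls had the same value of 4.20 and control 4 was at 4.12, both under the negative control medians. For Cct8l1 it was 0.988, with control 5 at 6.21 and the other controls at 6.10. For Tuba1c it was 0.822, with control 2 at 12.28 and the others at 12.10 to 12.13. For Txndc9 it was 0.715, with control 2 at 7.26 and the others at 7.46 to 7.54. For Bub1 it was 0.711, with control 5 at 5.69 and the others at 6.02 to 6.15.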

How the results depend on the processing

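Differences of the 8 subunits were above 0 under the alternatives run, except that Cct6b had no difference with a floor, without control 4 or with the replicate number as a block, and was not tested with dim genes left out. The subunit median stayed between 0.32 and 0.44. The count of subunits past the threshold (5) was 3 to 5 with 1 array left out and 4 to 6 under other scalings, a floor, trend and robust variances, array weights and Xist as a block. The Cct5 difference was 0.086 under quantile normalization. The count over all genes (4022) was 2333 with the floor and 2510 to 4573 with 1 array left out. The count of companion genes that rose (12) was 7 with Xist as a block, 5 with the floor, and 5 to 10 with 1 array left out. Those that fell (3) were 5 under quantile normalization. Dim genes left out, the count that rose was 17. With the replicate number as a block, 0 genes, 0 subunits and 0 companion genes passed, and the subunit median was 0.316. At an unadjusted p under 0.05, 4918 genes, 5 subunits and 16 companion genes passed in that limma fit. It has 2 residual degrees of freedom. Over genes, same-numbered arrays did not deviate together (r = -0.285, -0.0525 and 0.0687). Yet Xist was low on both arrays numbered 1 and both numbered 2, and high on both numbered 3. Whether the numbers pair the mice cannot be told from these values. Of 747 values of named genes, 156 lost a call, 11 gained one and 0 changed sign. The causes were not tested.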
